A study of Mus musculus with 2 samples.

Results

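The 4 nuclear factor I genes, Nfia, Nfib, Nfic and Nfix, and the zinc finger gene Zbtb20 were followed across the cell classes of the mouse dentate gyrus. They are 5 of the 17592 gene columns of the deposited expression table and were picked by name, with their levels in these data already known, so that everything below is a description of levels with no test. The tissue was microdissected from C57BL/6 mice at 3 months of age (young) or 16 months of age (old), dissociated with papain, sorted for live cells that excluded propidium iodide, and profiled with the 10x Genomics 3' kit, version 3. Each age was represented by 1 library, and the labels do not say how many animals went into it, nor their sex. With 1 library per age, no p-value can be given for age, and cells are not replicates.

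Nuclear factor I (NFI) proteins bind DNA as dimers of the same or of different members, at the palindrome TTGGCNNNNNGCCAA. In the developing nervous system Nfia and Nfib are known for starting gliogenesis, and loss of Nfia, Nfib or Nfix disturbs the maturation of hippocampal radial glia and their daughter neurons. Nfix is also known as a brake on the activation of adult neural stem cells, whereas Nfic is best known for its role in tooth root formation. Zbtb20 encodes a transcriptional repressor with a BTB domain and zinc fingers that specifies hippocampal projection neurons and promotes the formation of astrocytes.

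The young library held 2463 cells with 16217559 unique molecular identifiers (UMIs, counts of captured transcripts) and the old library 1430 cells with 7451506. Of these, 1401 cell barcodes occurred in both libraries. In the young library 1315 cells fell into clusters with a median share of mitochondrial transcripts below 1%, which were set aside, and 1148 into clusters of ordinary mitochondrial share, called brain-class cells here; the old library had 289 and 1141. Of the brain-class barcodes, 1113 occurred in both libraries, and all 1113 fell into the same class in both. The old values are therefore given as those of largely the same barcodes, and neither as a replicate nor as a measure of age. Over these 1113 pairs the log2 ratio of the old to the young level was 0.08 for Nfia, 0.02 for Nfib, 0.04 for Nfic, -0.02 for Nfix and -0.09 for Zbtb20.

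Named classes came from clusters drawn without the 5 genes and named from marker genes, and each name carries the ending -like. The young library gave 391 microglia-like, 300 astrocyte-like, 129 endothelial-like, 82 mature oligodendrocyte-like, 70 pericyte-like, 58 neuroblast-like and 45 oligodendrocyte precursor-like cells, besides 14 smooth muscle-like, 10 perivascular macrophage-like, 5 B cell-like and 44 unnamed cells. At least 7 markers passed in every cluster behind these names; in the neuroblast-like cluster 8 of 10 did. Of its 10 leading genes by fold 1, Igfbpl1, was such a marker, and 4 were Nfib, Nfix, Zbtb20 and Nfia themselves, although they had no part in the clustering. The name depends on the clustering: at Leiden resolution 2 the cells fell into a cluster of 49 young cells named intermediate progenitor-like, from 6 of 7 markers, and one of 9 named Cajal-Retzius-like. No class of mature granule neurons was found, although the tissue is the dentate gyrus. Levels are summed UMIs of a gene per 10,000 summed UMIs of the class. Their 95% intervals are exact Poisson intervals that cover counting error only. A UMI is counted near the 3' end of a transcript, so levels were not divided by gene length, and whether gene length affects them was not tested. Capture may also differ between genes, and a share of UMIs between genes is not a share of molecules.

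In the mouse genome (GRCm38, GENCODE M21) Nfia lies at chr4:97772734-98118874 on the plus strand and Nfib at chr4:82290173-82705750 on the minus strand. Nfic lies at chr10:81396186-81455635 and Nfix at chr8:84699876-84800344, both on the minus strand, and Zbtb20 lies at chr16:42875881-43642602 on the plus strand. Each gene overlaps at least 1 gene of the opposite strand that has its own column in the table (E130114P18Rik, Gm11266, Gm16104, Lyl1 with G430095P16Rik, and Gm9968, in the same order), and whether the counting used the strand is not given in the sources used here. The last 500 bases of their transcripts share 0% of their stretches of 31 bases with other genes, except for 0.634% in Nfib, so the 4 relatives can be told apart by their 3' ends. The 250 bases before the RefSeq start sites (GRCm38.p6) are shown for the genes in that table so that the letters searched for the NFI motif can be seen. The Nfia window lies before the GENCODE span of the gene and the others lie within theirs, so a window is 1 of several possible start sites. Capitals mark TTGGC or its reverse complement GCCAA. Nfix has further windows that are not shown, among them chr8:84772876-84773125, which holds GCCAA.
Nfia, chr4:97581693-97581942, plus strand: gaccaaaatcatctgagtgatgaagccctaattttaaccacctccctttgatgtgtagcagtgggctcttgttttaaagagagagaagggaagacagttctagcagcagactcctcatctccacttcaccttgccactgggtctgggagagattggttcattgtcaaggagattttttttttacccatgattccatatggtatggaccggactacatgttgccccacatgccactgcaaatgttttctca
Nfic, chr10:81427174-81427423, minus strand: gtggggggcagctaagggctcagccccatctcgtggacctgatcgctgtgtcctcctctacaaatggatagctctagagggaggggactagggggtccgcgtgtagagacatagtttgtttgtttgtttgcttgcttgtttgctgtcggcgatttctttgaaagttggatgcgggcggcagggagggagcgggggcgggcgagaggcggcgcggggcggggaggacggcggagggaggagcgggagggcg
Nfix, chr8:84780083-84780332, minus strand: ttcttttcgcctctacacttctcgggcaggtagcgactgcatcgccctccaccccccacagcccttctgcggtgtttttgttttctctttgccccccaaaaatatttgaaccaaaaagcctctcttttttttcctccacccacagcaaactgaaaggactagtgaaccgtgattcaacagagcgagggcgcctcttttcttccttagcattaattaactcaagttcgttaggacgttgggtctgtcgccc
Nfix, window with a TTGGC match, chr8:84775829-84776078, minus strand: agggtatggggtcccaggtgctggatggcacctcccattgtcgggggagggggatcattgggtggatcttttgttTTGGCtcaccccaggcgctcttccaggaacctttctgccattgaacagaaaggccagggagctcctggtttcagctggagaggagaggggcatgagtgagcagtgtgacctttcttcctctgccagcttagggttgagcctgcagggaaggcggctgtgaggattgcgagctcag
Zbtb20, chr16:43247034-43247283, plus strand: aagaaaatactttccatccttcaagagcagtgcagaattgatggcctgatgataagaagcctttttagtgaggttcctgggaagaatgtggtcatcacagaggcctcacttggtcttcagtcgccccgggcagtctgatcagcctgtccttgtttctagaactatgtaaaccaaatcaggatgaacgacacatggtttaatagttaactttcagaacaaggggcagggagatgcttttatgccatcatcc

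The full palindrome was in none of the RefSeq windows of Nfia, Nfic, Nfix or Zbtb20, searched on both strands, and was in 12 of 32851 windows of the same length in the genome (0.0365%). Its arm TTGGC was present in 2 of the 4 Nfix windows and in none of the single windows of Nfia, Nfic and Zbtb20, against 41.5% of all windows. In base composition the Nfic window held 63.2% G or C and 19 CpG dinucleotides. Nfia and Zbtb20 both held 44.8% G or C, with 1 and 3 CpG dinucleotides. The 4 Nfix windows held 49.2%, 58.4%, 52.4% and 42% with 11, 4, 7 and 1, and the median over all windows was 52.4% with 6. These are letters in a window, not binding sites.

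Nfia, Nfib, Nfix and Zbtb20 each had their highest level in neuroblast-like cells, a class with markers of young neurons. Nfia stood at 17.5 UMIs per 10,000 (95% interval 16.3 to 18.7) in the young library and at 19.9 in the old one. For Nfib the level was 39.3 (37.5 to 41.2) in the young and 41.9 in the old library. Nfix reached 28.4 (26.8 to 29.97) and 28.8, and Zbtb20, the most abundant of the 5, reached 53.6 (51.4 to 55.7) and 52.5. Nfic did not follow its relatives and stood at 1.08 (0.793 to 1.43) and 0.957.

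In single neuroblast-like cells 4 of the 5 genes were found in over 90% of cells, and Nfic was not. UMIs of Nfib were found in 58 of 58 young cells, of Zbtb20 in 57, of Nfix in 55, of Nfia in 53 and of Nfic in 27. The median cell held 55.3 UMIs of Zbtb20 per 10,000, with the middle of the cells (25th to 75th percentile) between 41.1 and 71.7 and a maximum of 258. Every neuroblast-like cell had at least 1 of the 4 NFI genes and 91.4% had 3 or all 4 of them.

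**Figure D1:**
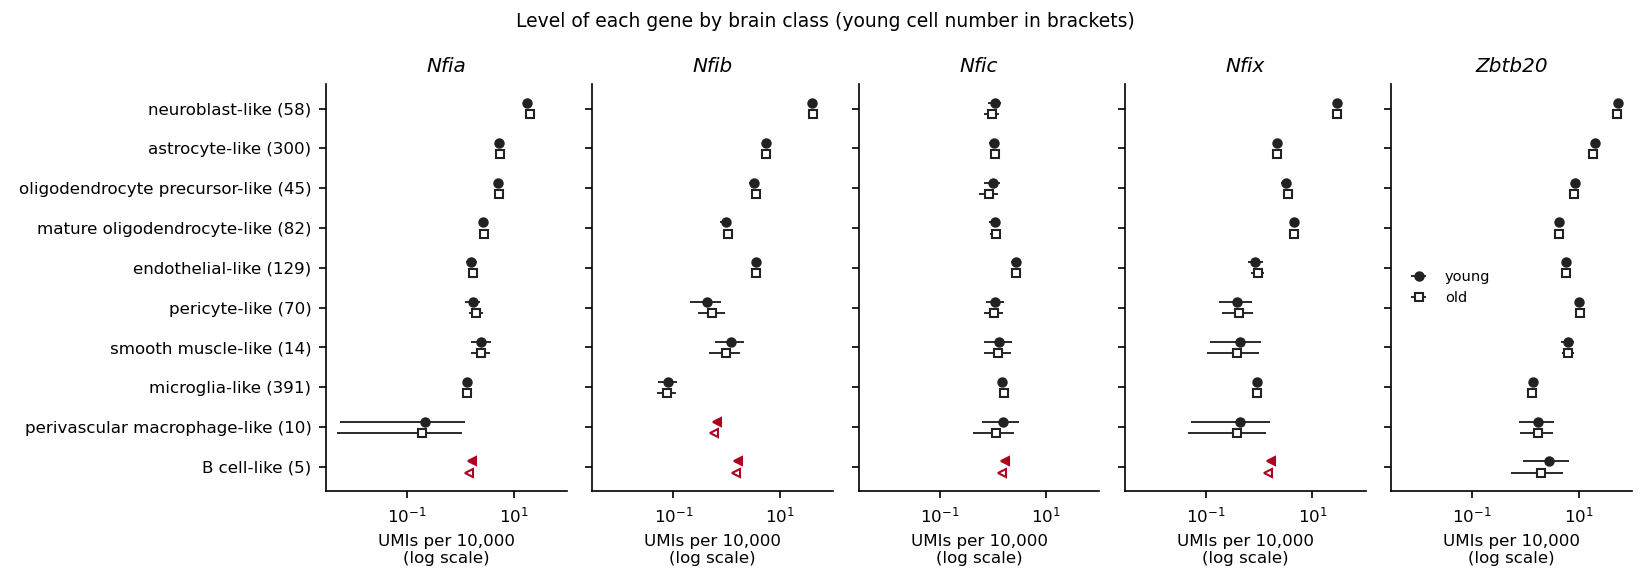
Level of each gene (UMIs per 10,000, log axis) in the 10 named classes, with young values as filled circles and old values as open squares; bars are exact Poisson 95% intervals, and red triangles mark the limit that 3 counts would give where no UMI was counted. Nfia, Nfib, Nfix and Zbtb20 peak in neuroblast-like cells (17.5, 39.3, 28.4 and 53.6 in the young library), while Nfic stays between 0.985 and 2.66 in the 7 classes of at least 30 cells.

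In astrocyte-like cells, the class of the mature glia that buffer glutamate and potassium, Zbtb20 led. Its level was 20.1 (19.2 to 21.1) in the young and 18.7 in the old library, and 97.0% of 300 young cells held a UMI of it. Nfib followed at 5.58 (5.10 to 6.10) in the young and 5.54 in the old library, Nfia at 5.35 (4.88 to 5.86) and 5.56, and Nfix at 2.18 (1.88 to 2.51) and 2.15. Nfic was lowest at 1.05 (0.848 to 1.29) and 1.09. Neuroblast-like cells exceeded astrocyte-like cells by 13.01-fold for Nfix (interval 11.2 to 15.2), 7.05-fold for Nfib (6.38 to 7.81), 3.26-fold for Nfia (2.90 to 3.66) and 2.66-fold for Zbtb20 (2.50 to 2.83). For Nfic the ratio was 1.02 with an interval from 0.707 to 1.47. These intervals are exact binomial intervals of 2 summed counts and cover counting error only.

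The oligodendrocyte lineage showed the NFI genes in a different order in its precursor and mature classes. In oligodendrocyte precursor-like cells Nfia was at 5.10 (4.37 to 5.93), Nfib at 3.22 (2.64 to 3.89), Nfix at 3.13 (2.56 to 3.79), Nfic at 0.985 (0.678 to 1.38) and Zbtb20 at 8.47 (7.52 to 9.52). In mature oligodendrocyte-like cells, which make myelin, Nfix was highest of the family at 4.59 (4.11 to 5.11), and Nfia was at 2.63, Nfib at 0.973, Nfic at 1.08 and Zbtb20 at 4.32. Mature over precursor ratios were 0.302 for Nfib (0.221 to 0.411), 0.509 for Zbtb20 (0.433 to 0.600), 0.516 for Nfia (0.417 to 0.637) and 1.47 for Nfix (1.17 to 1.84). Old values in the mature class were close, with Nfix at 4.57 and Nfib at 1.08.

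In the vessel wall Nfib, Nfic, Nfix and Zbtb20 differed beyond counting error between endothelial-like and pericyte-like cells, and Nfia did not. Endothelial-like cells, which line the vessel, had the highest Nfic value of the named classes, 2.66 (2.21 to 3.18) in the young and 2.705 in the old library, with Nfib at 3.58 (3.05 to 4.17) and Zbtb20 at 5.80 (5.12 to 6.54). The Nfic level there was not apart from that of the 10 perivascular macrophage-like cells, at 1.53 (0.614 to 3.15). Pericyte-like cells, which wrap it, had Zbtb20 at 10.3 (9.06 to 11.7) and in the old library at 10.7, beside 10 UMIs of Nfib in 70 cells, a level of 0.428 (0.205 to 0.787). Pericyte-like over endothelial-like ratios were 1.78 for Zbtb20 (1.49 to 2.13), 0.453 for Nfix (0.193 to 0.951), 0.419 for Nfic (0.263 to 0.643), 0.120 for Nfib (0.0564 to 0.226) and 1.06 for Nfia (0.704 to 1.58).

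Of the defining astrocyte markers, Aqp4 was at 0.0428 UMIs per 10,000 in pericyte-like cells against 8.71 in astrocyte-like cells, and Gja1, a gap junction gene, at 0.214 against 12.7. The glutamate transporter genes Slc1a2 and Slc1a3 were at 1.03 and 0.899, against 87.2 and 32.8. Without the 9 pericyte-like cells that held markers of another class, Zbtb20 stood at 11.2, and among cells with at least 3000 UMIs at 8.26, beside 8.09 in oligodendrocyte precursor-like cells.

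Microglia-like cells, the macrophages of the brain tissue itself, had the lowest Nfib level of the 7 classes with at least 30 cells. In the young library 24 UMIs were counted in 391 cells, a level of 0.0794 (0.0509 to 0.118), and 25 in 386 cells of the old library, a level of 0.0754. Only 4.86% of the young cells held a UMI of Nfib, at a median depth of 7797 UMIs per cell, against 74.0% of astrocyte-like cells at 1908. Nfic was there at 1.495 (1.36 to 1.64), Nfia was at 1.31 (1.18 to 1.45), Nfix at 0.897 (0.793 to 1.01) and Zbtb20 at 1.36 (1.23 to 1.49). Astrocyte-like over microglia-like ratios were 70.3 for Nfib (46.7 to 111), 14.8 for Zbtb20 (13.3 to 16.6), 4.09 for Nfia (3.57 to 4.68), 2.43 for Nfix (2.01 to 2.94) and 0.703 for Nfic (0.556 to 0.880). The part of free RNA in these few UMIs was not tested.

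The smallest classes gave few UMIs. In 14 smooth muscle-like cells Zbtb20 was at 6.24 (4.74 to 8.07) and Nfia at 2.48 (1.57 to 3.72). In 10 perivascular macrophage-like cells no UMI of Nfib was counted, which allows a level of up to 0.655 UMIs per 10,000 by the limit of 3 counts, and Zbtb20 was at 1.75 (0.754 to 3.44). In 5 B cell-like cells no UMI of any NFI gene was counted, which allows a level of up to 1.66, and Zbtb20 was counted 5 times.

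Ordered by level over the 10 named classes, each gene gives 9 steps between neighbours, and a step counts as apart here where its interval leaves out a ratio of 1. Nfib and Zbtb20 each had 5 such steps, Nfix 4, Nfia 3 and Nfic 0. These counts depend on which classes are neighbours. For Nfic the perivascular macrophage-like class, with 7 UMIs, lay between endothelial-like cells (2.21 to 3.18) and microglia-like cells (1.36 to 1.64), whose intervals do not overlap. For Nfia the step from microglia-like to perivascular macrophage-like cells rested on 1 UMI in the latter (1.07 to 238). For Zbtb20 the order ran from neuroblast-like over astrocyte-like, pericyte-like and oligodendrocyte precursor-like to smooth muscle-like cells with every step apart by counting error. The next step to endothelial-like cells was not, and the one from there to mature oligodendrocyte-like cells was. The step from pericyte-like to oligodendrocyte precursor-like cells, 1.22 (1.02 to 1.45), set a median depth of 3206 UMIs against 8009. In the deeper pericyte-like cells (median 4042 UMIs) Zbtb20 was at 8.66, beside 8.47 in all oligodendrocyte precursor-like cells. The part of depth in this order was not tested. Nfia in astrocyte-like and oligodendrocyte precursor-like cells differed by a ratio of 1.05 (0.879 to 1.26), which is not apart. Nfib in endothelial-like over oligodendrocyte precursor-like cells gave 1.11 (0.865 to 1.43), also not apart. Over the 7 classes of at least 30 cells the highest level exceeded the lowest by 496-fold for Nfib, 73.6-fold for Nfix, 39.5-fold for Zbtb20, 13.3-fold for Nfia and 2.701-fold for Nfic. In each of the 10 classes the young and old intervals overlapped for all 5 genes. Because the classes of both libraries hold largely the same barcodes, this overlap is neither replication nor a measure of age.

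Summed over the 4 genes, the NFI family reached 86.2 UMIs per 10,000 in neuroblast-like cells, 14.2 in astrocyte-like, 12.4 in oligodendrocyte precursor-like, 9.28 in mature oligodendrocyte-like, 8.70 in endothelial-like, 3.78 in microglia-like and 3.64 in pericyte-like cells. Its makeup changed with the class. In neuroblast-like cells Nfib gave 45.6% of the NFI UMIs (44.0 to 47.2), Nfix 32.9% (31.4 to 34.4), Nfia 20.2% (19.0 to 21.5) and Nfic 1.25% (0.921 to 1.65). Astrocyte-like cells drew 39.4% (36.7 to 42.2) from Nfib and 37.8% (35.1 to 40.5) from Nfia. In mature oligodendrocyte-like cells Nfix gave 49.5% (45.7 to 53.3), and in microglia-like cells Nfic gave 39.5% (36.7 to 42.4) and Nfib 2.10% (1.35 to 3.11). Endothelial-like cells divided theirs mainly between Nfib, 41.1% (36.2 to 46.1), and Nfic, 30.6% (26.1 to 35.4). The intervals are exact binomial ones. In the old library the leading shares were 45.7% for Nfib in neuroblast-like, 47.9% for Nfix in mature oligodendrocyte-like and 40.7% for Nfic in microglia-like cells.

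**Figure D2:**
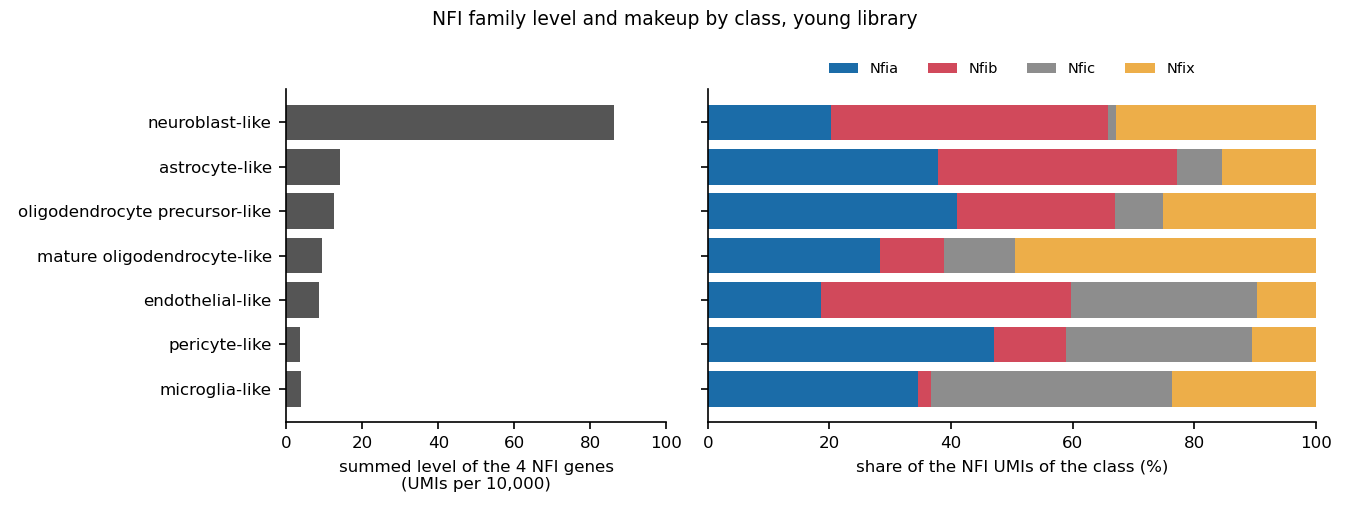
Left, summed level of the 4 NFI genes (UMIs per 10,000) in the 7 classes of at least 30 young cells; right, the share of those UMIs (percent) that came from each gene. The neuroblast-like bar is the longest at 86.2, Nfix takes 49.5% in mature oligodendrocyte-like cells, and Nfib shrinks to 2.10% in microglia-like cells.

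Within single neuroblast-like cells Nfib was often counted together with Nfix and with Zbtb20. There Nfib and Nfix were both present in 94.8% of the 58 cells, against 30% of astrocyte-like cells. At an equal depth of 1000 UMIs per cell, calculated without random draws from each cell's counts, both would be seen in 76.9% of 57 neuroblast-like cells and in 7.26% of 259 astrocyte-like cells; the shallower cells were left out. At that depth Nfib and Zbtb20 would be seen together in 88.3% and 42.1%. Pairs with Nfic were not most frequent there: Nfic and Nfix were both present in 46.6% of neuroblast-like and 52.4% of mature oligodendrocyte-like cells. Pericyte-like cells showed Zbtb20 apart from the family: 27.1% of 70 cells held Zbtb20 and no NFI gene, against 6.67% of astrocyte-like cells and 6.14% of microglia-like cells at their own depths.

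Levels of Nfia, Nfib and Nfix were correlated across neuroblast-like cells, a class that is itself a mixture. Over its 58 cells Spearman's rho was 0.62 for Nfia with Nfix, 0.61 for Nfib with Nfix, 0.60 for Nfia with Nfib, 0.50 for Nfib with Zbtb20 and 0.18 for Nfix with Zbtb20. For Nfic it was 0.13 with Nfia, 0.04 with Nfib, 0.23 with Nfix and -0.13 with Zbtb20. In 300 astrocyte-like cells the coefficient was 0.32 for Nfib with Zbtb20, and lay between -0.19 and 0.10 for the other 9 pairs. All cells of a class come from 1 library and differ in depth, so these coefficients are descriptions.

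Dividing the neuroblast-like cells into 4 sub-clusters, again without the 5 genes, showed where the levels were highest. One sub-cluster of 18 cells was led by Kcnk1 and by Calb2, the calretinin gene of immature granule neurons, one of 15 cells by histone genes together with Tac2 and the neurogenic factor Neurod1, and one of 15 cells by the cyclin Ccnd2 and the chromatin gene Hmgb2. Among the leading genes of the latter were also Dlx6os1 and Meis2, which are known from interneuron lineages, and Prox1, a granule lineage factor, was found in 73.3% of its cells. Sox2, a progenitor factor, was found in 100% of them, Hopx in 40% and both Gfap and the proliferation marker Mki67 in 26.7%; Sox2 was also found in 86.7% of the histone-led cells. The last, of 10 cells, was Cajal-Retzius-like: 5 of its 7 listed markers passed, and all 10 cells held Reln, the reelin gene. Zbtb20 was at 84.0 (78.3 to 90.1) in the Kcnk1 and Calb2-led cells, at 52.2 (48.5 to 56.1) in the histone-led cells, at 46.6 (43.3 to 50.0) in the Ccnd2 and Hmgb2-led cells, and at 22.8 (18.8 to 27.3) in the Cajal-Retzius-like cells. In the old library the same order held, with 77.5, 49.8, 49.2 and 21.1.

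Nfia, Nfib and Nfix were also lowest in the Cajal-Retzius-like cells. Nfic, with 3 to 21 UMIs per sub-cluster, was between 0.425 and 1.40 in the young library. Nfix was highest in the histone-led cells, at 38.9 (35.7 to 42.2), against 24.9 and 25.5 in the Kcnk1 and Calb2-led and the Ccnd2 and Hmgb2-led cells and 14.3 (11.2 to 18.0) in the Cajal-Retzius-like cells. Nfia was also highest in the histone-led cells, at 23.5, against 16.4, 15.8 and 7.53 in the same 3 other sub-clusters. Nfib was level in the Kcnk1 and Calb2-led and the histone-led cells, at 49.2 (44.9 to 53.9) and 49.2 (45.7 to 53.0). It was at 32.1 (29.4 to 35.0) in the Ccnd2 and Hmgb2-led and 15.8 (12.6 to 19.7) in the Cajal-Retzius-like cells. For Zbtb20 the 18 Kcnk1 and Calb2-led cells ranged from 50.9 to 258 and the 10 Cajal-Retzius-like cells from 0 to 48.8. In the old library these ranges were 37.3 to 239 and 0 to 46.7, which overlap. They are not set beside the ranges of other genes here. For Nfix the histone-led cells, from 20.7 to 72.9, overlapped the Cajal-Retzius-like cells, from 1.18 to 41.1. Median depths were 4319, 9412, 11075 and 4652 UMIs in the same order of sub-clusters, and the part of depth in these levels was not tested.

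**Figure D3:**
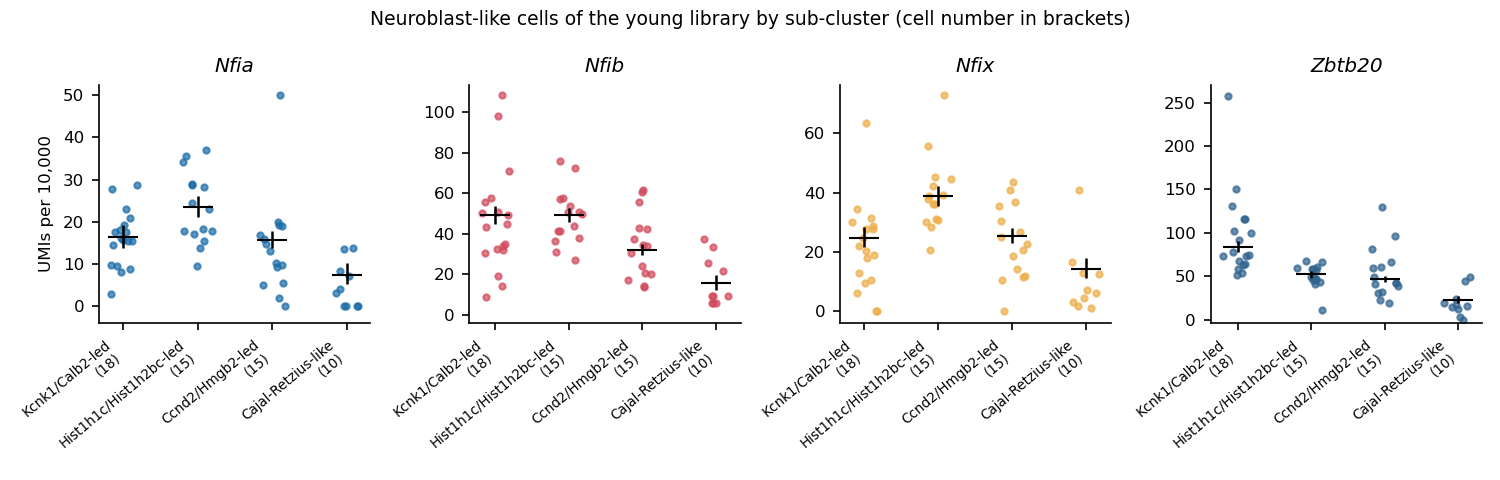
UMIs per 10,000 of Nfia, Nfib, Nfix and Zbtb20 in the 58 young neuroblast-like cells, one point per cell, by sub-cluster; black dashes with bars are summed levels with exact Poisson 95% intervals. Zbtb20 is highest in the Kcnk1 and Calb2-led cells (84.0), Nfix in the histone-led cells (38.9), and the Cajal-Retzius-like cells are lowest for all 4 genes.

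Among astrocyte-like cells the level of Zbtb20 and Nfib moved with the depth of the cell. When the young cells were divided at their median depth, Zbtb20 was at 36.4 in the 151 shallower cells (median 1181 UMIs) and at 15.8 in the 149 deeper ones (median 4368), a ratio of 2.30 (2.09 to 2.54). Nfib stood at 10.1 and 4.39, a ratio of 2.30 (1.91 to 2.77). Nfia, with 1.24 (0.996 to 1.53), Nfix, with 0.751 (0.497 to 1.10), and Nfic, with 1.03 (0.597 to 1.72), had intervals that include 1. In this comparison 28.3% of 4818 genes were at least 2-fold higher in the shallower cells, and 2 of the 5 members were, a count too small to read against that share. Over 4 groups of rising depth Zbtb20 was at 42.9, 32.2, 19.1 and 14.4 UMIs per 10,000, while its mean count per cell was 4.20, 4.74, 5.51 and 9.32.

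Other features moved with depth in the same cells. The nuclear long noncoding RNA Neat1 gave a ratio of 2.46 (2.07 to 2.91) and Malat1, another one, 0.824 (0.806 to 0.843). The mitochondrial share was 5.10% in the shallower and 9.94% in the deeper cells. In the old library the ratios were 2.23 for Zbtb20 and 2.11 for Nfib. Across the 7 classes of at least 30 cells Zbtb20 was higher in shallower cells beyond the counting interval in 5, among them pericyte-like cells at 1.58 (1.22 to 2.06), microglia-like cells at 1.51 (1.23 to 1.84) and neuroblast-like cells at 1.35 (1.24 to 1.47). The interval included 1 in endothelial-like cells, at 1.06 (0.802 to 1.39), and in mature oligodendrocyte-like cells, at 0.942 (0.740 to 1.19). Other members were lower in shallower young cells beyond the counting interval: Nfia, Nfic and Nfix in neuroblast-like, Nfix in microglia-like and Nfib in pericyte-like cells. Of these, Nfic rested on 6 against 42 UMIs and Nfib on 0 against 10. In the old library the intervals of these Nfic and Nfib ratios included 1 (0.327 to 1.65 and 0.104 to 2.28). Those of Nfia and Nfix again lay below 1 there. The share over all genes is given for astrocyte-like cells only. Among cells with at least 3000 UMIs the level of Zbtb20 in astrocyte-like cells was 14.6 and the neuroblast-like over astrocyte-like ratio 3.62. The part of depth and of the mitochondrial share in these levels was not tested.

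**Figure D4:**
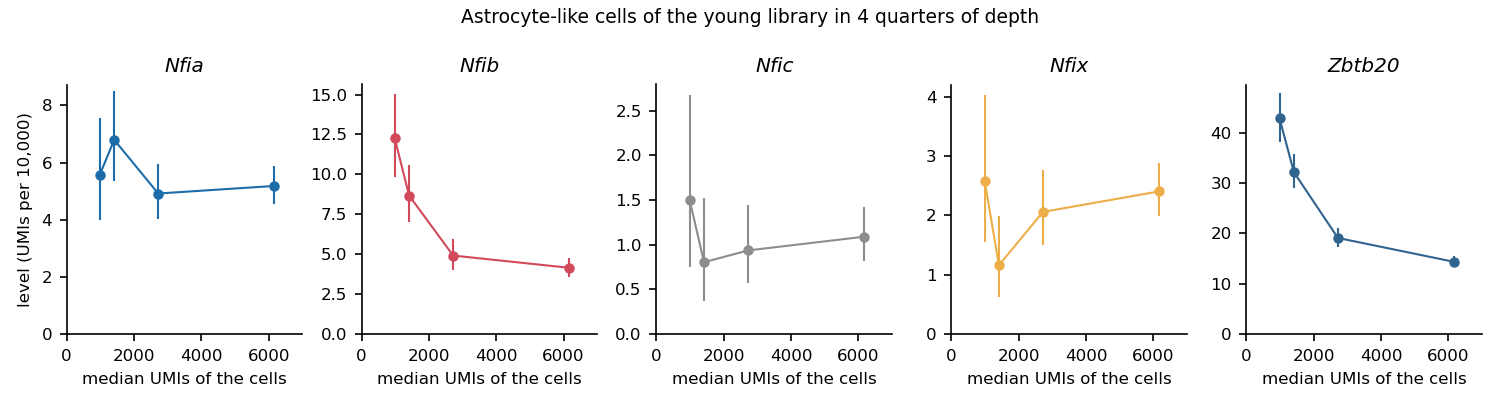
Level (UMIs per 10,000, axes from 0) of the 5 genes in the young astrocyte-like cells, divided into 4 groups of 74 to 76 cells by depth and placed at the median UMIs of each group; bars are exact Poisson 95% intervals. Zbtb20 goes from 42.9 to 14.4 and Nfib from 12.2 to 4.15, while the intervals of Nfia, Nfic and Nfix overlap between the lowest and the highest group.

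The astrocyte-like class joined 2 clusters. The larger, of 277 cells, had Zbtb20 at 21.1 (20.1 to 22.1) and Nfib at 5.74 (5.24 to 6.29). A smaller one of 23 cells, led by Mt3, Aldoc and Mt1 and with Hopx among its leading genes, had Zbtb20 at 7.40 (5.43 to 9.84) and Nfib at 3.46 (2.17 to 5.24). Its Nfia level, 5.19 (3.57 to 7.29), lay within the interval of the larger cluster, 5.37 (4.88 to 5.89), and its median depth was 2607 UMIs against 1853.

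Other genes linked to the same factors were read from 5 lists, as counts at least 2-fold higher in a class than in all other brain-class cells, among genes at 0.5 UMIs per 10,000 or more on either side. In astrocyte-like cells 27.7% of 4727 genes met this, and in neuroblast-like cells 26.3% of 4775; among the members, Zbtb20 met it in astrocyte-like cells, and Nfia, Nfib, Nfix and Zbtb20 in neuroblast-like cells, by 7.57-fold, 26.6-fold, 17.6-fold and 9.50-fold. At least 2-fold lower were 23.4% and 23.9% of genes. No member was lower in either class by that measure. The lists were put together with earlier results of these data known, and some of their genes also served as class markers, so their direction is no evidence of its own.

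Of the astroglial genes known as linked to NFI factors, 9 of the 9 at that level were higher in astrocyte-like cells, with a median log2 difference of 3.64 against 0.09 over all genes tested. The highest were Slc1a3, a glutamate transporter, at 32.8, Sparcl1, a secreted synaptogenic protein, at 20.6, Aqp4, the water channel of the endfeet, at 8.71, and Mmd2 at 7.67. Aqp4 and Slc1a3 were markers of the class. In neuroblast-like cells, where the NFI level was highest, 0 of these 9 were higher and 5 were lower: Sparcl1 at 0.605, Gfap, the glial filament gene, at 0.134, Aqp4 at 0.112, Zcchc24 at 0.0896 and S100b at 0.0672. Slc1a3 and Mmd2, at 4.44 and 2.49, were within 2-fold of the other cells. The median log2 difference was -2.07 against 0.33 over all genes.

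Few of the NFI-linked genes of progenitors and neurons reached that level, 3 in each class. The adhesion gene Cdh2 was higher in both, at 1.59 in astrocyte-like and 1.93 in neuroblast-like cells. Cntn2, another adhesion gene, was lower in astrocyte-like cells, at 0.0791. Ezh2, the methyltransferase of the Polycomb complex, was higher in neuroblast-like cells, at 1.21, 9.83-fold over the other cells (6.79 to 14.1). The Notch target Hes1 was lower there, at 0.0448. The median log2 difference of the list was 0.06 in astrocyte-like and 1.66 in neuroblast-like cells.

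Transcription factors of the glial list were higher in astrocyte-like cells in 12 of 18 cases and lower in 3, the oligodendrocyte factors Sox10, Olig1 and Olig2; the median log2 difference was 2.36. Hopx was at 11.5, Id4 at 9.33, Id3 at 6.89 and Id2 at 6.44. In neuroblast-like cells 3 of 15 were higher and 9 lower, with a median of -1.14. The 3 higher ones were Id2, an inhibitor of basic helix-loop-helix factors, at 6.77, the cortical patterning factor Lhx2 at 5.60 and the Hippo pathway factor Tead1 at 2.24, all of which were also higher in astrocyte-like cells.

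Granule lineage factors were higher in neuroblast-like cells in 15 of 15 cases, with a median log2 difference of 3.35. Tcf4, a partner of neurogenic factors, was at 43.2, Sox11 at 33.1, Sox4 at 29.2 and Neurod1 at 5.18. Sox11, Neurod1, Neurod2 and Prox1 were markers of the class. In astrocyte-like cells 3 of 6 were higher, Tcf4 at 16.7, Pax6 at 1.68 and Emx2 at 0.983, and 3 were lower, Prox1, Sox4 and Sox11, with a median of -0.02. Of the other BTB zinc finger genes 4 of 24 reached the level in each class. None of the 4 was higher in astrocyte-like cells (median -0.60), and in neuroblast-like cells 1 was (median -0.28), Zbtb18, a repressor needed for the growth of the forebrain, at 5.42 and 13.8-fold over the other cells (11.5 to 16.6). Zbtb7a was lower in both classes, at 0.689 and 0.717. In UMIs per 10,000, Zbtb20 stood at 53.6 in neuroblast-like cells and Zbtb18 came next of the BTB zinc finger genes listed.

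**Figure D5:**
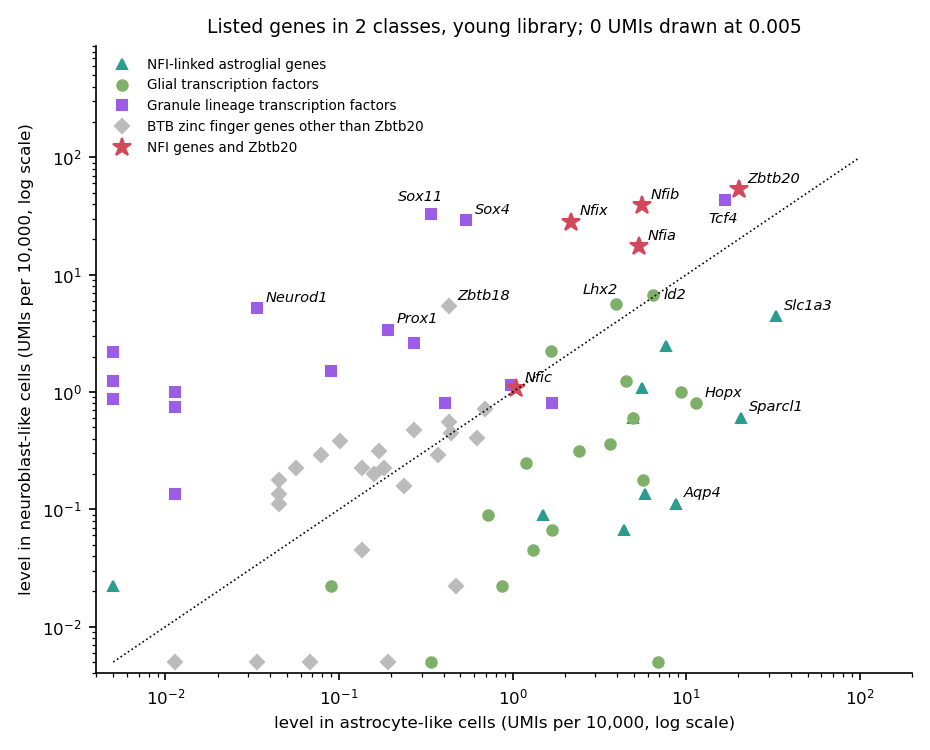
Level in astrocyte-like cells (horizontal) against level in neuroblast-like cells (vertical), both in UMIs per 10,000 on log axes, for the members (stars) and the genes of 4 lists in the young library; genes with no UMI are drawn at 0.005 and the dotted line marks equal levels. Nfia, Nfib, Nfix, Zbtb20 and Tcf4 lie above the line, with at least 2.18 in astrocyte-like cells, whereas Sox11 and Sox4 are at 0.339 and 0.542 in astrocyte-like cells.

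Likeness of pattern was measured as Pearson's r of log2(level + 0.1) across the 7 classes of at least 30 young cells, over 7520 genes that reached 0.5 UMIs per 10,000 in at least 1 class. The 7 points come from 1 library and differ in depth and cell number, and the highest of 7520 coefficients over 7 points is high in any case. Between the members r was 0.89 for Nfia with Nfix, 0.88 for Nfia with Nfib and for Nfib with Zbtb20, 0.86 for Nfia with Zbtb20, 0.76 for Nfib with Nfix and 0.61 for Nfix with Zbtb20. Without the neuroblast-like class the last was 0.10 and that of Nfib with Nfix to 0.43, while Nfib with Zbtb20 was 0.75. Between Nfic and Nfia r was -0.53.

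Closest to Zbtb20 were Orc6, Ube2o, Tcf4, Yod1 and Spata7, with r from 0.99 to 0.97; Tcf4 was the only one of them above 1 UMI per 10,000 in any class. Closest to Nfia were Fam192a, Ip6k2, Zfp266, Zfp354c and Ccar2 (0.98 to 0.97), to Nfib Fkbp3, Klhl12, Brwd1, Ppme1 and Yeats2 (0.97 to 0.96), and to Nfix Usp22, Ddx42, Ppil1, Eml5 and Terf2ip (0.99 to 0.96). Closest to Nfic were AW112010, Slc39a8, Prkch, Gimap1 and Ceacam1 (0.99 to 0.98), each of them highest in endothelial-like cells at 0.872 to 2.14. Most of these 25 genes had low levels. With a pseudocount of 1, 4 of the 5 closest to Zbtb20 were again among its 5 closest, 3 for Nfia, 3 for Nfix, 2 for Nfib and 2 for Nfic.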

How the data were processed

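Single-cell 3' transcript counts were made by the authors with Cell Ranger 5.0.0 against mm10, per the submitters' processing notes, and deposited as 1 table of cells by genes whose values are the natural log of 1 plus UMIs per 10,000, per the values of the deposited table. Whole UMIs were recovered from these values in each cell, 100% of them within 0.01 of a whole number. Scanpy 1.11.5 was used with 2000 variable genes, the 5 members left out, 30 principal components, 15 neighbours and Leiden resolution 1. A cluster was named from at least 3 markers of a class, each in 25% of its cells and 4-fold above the rest. Clusters whose median mitochondrial share was under 1% were set aside. Scrublet called 37 young and 23 old cells doublets (1.50% and 1.61%), which were kept. Median depth was 6663 UMIs per young and 3856 per old cell. Classes were rebuilt here and may differ from those of the study.

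Gene symbols matched GENCODE M21 for 17403 of 17592 columns (98.9%); 4 of the 5 members had entries in the RefSeq promoter table. Named genes were the 5 members, the up to 4 highest genes of each list that were at least 2-fold higher in a class, and the 5 genes most like each member; genes behind a count of 5 or fewer, leading genes of clusters and depth-related genes were named after their values were seen. Fold calls and intervals were tested on simulated Poisson counts drawn from a common profile. The intervals assume such counts, so this could not test them against spread between cells. The members, lists and comparisons were chosen with earlier results of these data known. The sub-clusters (Leiden resolution 0.5; a finer division was also looked at), the split by depth, the cells with at least 3000 UMIs and the value without Cajal-Retzius-like cells were chosen after seeing the data. Listed genes Chi3l1 and Gabra6 were not analysed here. Values of 2 further genes are not reported here.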

Additional observations from a re-analysis of the deposited data

How the results depend on the processing

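The log2 ratios of both contrasts were recomputed under 10 alternatives each. For astrocyte-like over microglia-like cells the ranges were 1.96 to 2.08 for Nfia, 5.85 to 6.76 for Nfib, 1.09 to 1.38 for Nfix, 3.46 to 4.12 for Zbtb20 and -0.70 to -0.46 for Nfic; for neuroblast-like over astrocyte-like cells they were 1.46 to 1.84, 2.34 to 3.22, 3.60 to 3.81 and 1.13 to 1.86 for Nfia, Nfib, Nfix and Zbtb20. No direction turned except for Nfic in the latter contrast (-0.25 to 0.22), whose reported value, 0.03, has an interval that includes no difference. Weighting each cell equally gave 1.46 for Nfia, 2.34 for Nfib and 1.13 for Zbtb20 in neuroblast-like over astrocyte-like cells, and 4.12 for Zbtb20 in astrocyte-like over microglia-like cells. Thinning to 1000 UMIs gave 2.52 for Nfib and 1.28 for Zbtb20, and leaving out cells with markers of another class gave 2.98 and 1.79, in neuroblast-like over astrocyte-like cells; that filter removed 29 of 58 neuroblast-like, 37 of 45 oligodendrocyte precursor-like and all 10 perivascular macrophage-like cells. Cells with at least 3000 UMIs gave 3.22 for Nfib and 1.86 for Zbtb20, and 3.46 for Zbtb20 in astrocyte-like over microglia-like cells; without Cajal-Retzius-like cells Zbtb20 gave 1.51. In each of these the composition of the cells changed by construction; the cause of the shift was not tested. At Leiden resolution 2 no cluster was named neuroblast-like (49 young cells were intermediate progenitor-like and 9 Cajal-Retzius-like), so that contrast has no value there. With no level floor, over 13350 genes, 3, 3, 2, 1 and 4 of the 5 genes most like Nfia, Nfib, Nfic, Nfix and Zbtb20 were again among the 5 closest. No paired test of age was possible because each age has 1 library. The barcodes found in both libraries are compared as values only, and the results come from no test. Counts under 3 in a class, and all values in perivascular macrophage-like and B cell-like cells, are limited by the few cells and UMIs counted.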

Other observations

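In the 1315 young cells set aside for their low mitochondrial share, Zbtb20 was at 1.44 UMIs per 10,000 (1.37 to 1.52), Nfia at 0.475 (0.433 to 0.521) and Nfib at 0.110 (0.0898 to 0.132), while Nfic and Nfix were counted 30 and 15 times. Nfia was highest among these clusters in the 99 cells led by Twist1 and Lgals1, at 1.55 (1.29 to 1.85), and in the 224 cells led by Tpbg and Cntnap2, at 0.988 (0.844 to 1.15). Zbtb20 was highest in the 174 cells led by Stmn2 and Gap43, at 2.98 (2.64 to 3.35), where Nfia was counted 4 times. The ratio of microglia-like to low-mitochondrial cells was 58.3 for Nfix (34.8 to 106), 48.7 for Nfic (33.6 to 73.0) and 2.76 for Nfia (2.40 to 3.16). It was 0.941 for Zbtb20 (0.841 to 1.05) and 0.724 for Nfib (0.445 to 1.14). In the old library, with 289 low-mitochondrial cells, these ratios were 5.43 for Nfix, 19.0 for Nfic and 2.64 for Nfia. There Zbtb20 gave 0.765 (0.605 to 0.978) and Nfib 0.905 (0.313 to 3.58).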
